A study of Homo sapiens with 3 samples.

Results

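Expression of 9 genes that flank FTO on 16q12 (RPGRIP1L, IRX3, IRX5, RBL2, AKTIP, CHD9, TOX3, LPCAT2 and MMP2) was examined in Hep-G2, an established human hepatoma line. The members were taken by symbol from a deposited table of 21572 genes, and all 9 were found there. The table gives FPKM, which divides a gene's fragments by its transcript length and by the mapped total, so that levels can be compared between genes. It holds 3 libraries from cells at passage 21: cells with the control hairpin SHC002, which the design text calls a scramble, and 2 lines with different short hairpin RNAs against FTO, labelled sh#2 and sh#7. The design states that sh#7 lowers FTO more than sh#2 does. Each line gave 1 library of about 47 M estimated fragments (M for mega), so no difference has a replicate check, no test was possible, and FTO level cannot be told apart from other differences between the lines.

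FTO encodes an RNA demethylase of the AlkB family. Variants in its introns are associated with body weight, and enhancers in those introns contact the promoters of the distant genes IRX3 and IRX5, which encode Iroquois homeodomain transcription factors. RPGRIP1L, on the other side, encodes a protein of the ciliary transition zone and starts beside FTO in the opposite direction. A short hairpin RNA acts on its matching transcript in the RNA interference pathway, so the neighbours of FTO are a reading of the locus around a gene whose RNA is targeted.

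The stretch between the FTO and RPGRIP1L start sites is shown because these 2 genes share it and their RNA levels differed in how they stood to the control. It spans 296 bases on RefSeq annotation of GRCh38.p14. The 250 bases before the FTO start lie at chr16:53703906-53704155 on the plus strand, and those before the RPGRIP1L start lie at chr16:53703860-53704109 on the minus strand; 204 bases are common to both. Capitals mark matches to ACTACANNTCCCAG, sought on both strands, a motif chosen after the sequence was read. Each printed stretch holds 2 matches, and both are the same positions seen from opposite strands. Of 35116 promoter windows of 300 bases in the same table, 1.02% hold at least 1 match and 0.0683% hold 2 or more. A match is a description of the letters only.
FTO: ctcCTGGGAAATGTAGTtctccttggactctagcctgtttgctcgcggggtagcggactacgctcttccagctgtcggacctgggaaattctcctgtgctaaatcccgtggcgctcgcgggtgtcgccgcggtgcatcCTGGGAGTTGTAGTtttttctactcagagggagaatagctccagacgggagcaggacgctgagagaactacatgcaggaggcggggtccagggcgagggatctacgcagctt
RPGRIP1L: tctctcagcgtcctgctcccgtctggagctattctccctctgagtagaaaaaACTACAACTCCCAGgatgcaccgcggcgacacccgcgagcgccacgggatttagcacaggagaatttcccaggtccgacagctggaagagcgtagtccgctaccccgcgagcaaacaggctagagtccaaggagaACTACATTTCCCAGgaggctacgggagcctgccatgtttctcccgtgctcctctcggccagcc

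FTO itself was highest with the control hairpin, at 9.02 FPKM, and the 2 hairpin lines followed at 5.29 (sh#2) and 2.55 FPKM (sh#7). The level in sh#2 was 58.6% of the control (95% counting interval 50.9 to 67.2), and that in sh#7 was 28.2% (23.5 to 33.7). The libraries are thus ordered as their labels say. These intervals, like those below, rest on estimated fragments and cover counting error alone, not the spread between cultures.

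Past 2-fold means here a difference of at least 1 in log2(FPKM + 1), among the 11069 genes that averaged at least 1 FPKM over the libraries; the added 1 keeps some low genes short of it whose plain FPKM ratio exceeds 2. The labelled cell type was checked by 10 hepatocyte markers, which were present in the 3 libraries. Of these, 6 of 10 were past 2-fold lower in sh#7, beside 2.48% of all compared genes, and 3 of 10 in sh#2, beside 0.723%. Their summed FPKM was 20640, 15008 and 6430 for control, sh#2 and sh#7. ALB was at 5468, 5501 and 1947 FPKM. FABP1 alone went from 6167 to 2415 FPKM between control and sh#2. In sh#2, AFP, TTR, SERPINA1, TF and FABP1 were lower than in the control. ALB, APOA1, APOB, HNF4A and FGB were not, at differences of 0.01 to 0.27. The sum, though not each marker, is thus ordered as IRX3 and TOX3 are below. The part of these markers in those values was not tested.

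RPGRIP1L stood close to the control in both lines, unlike FTO. The control, sh#2 and sh#7 libraries held it at 2.66, 2.60 and 3.13 FPKM, respectively. The 3 counting intervals overlapped. The sh#2 level was 97.8% of the control (71.9 to 133.8), and the sh#7 level was 117.9% (87.8 to 159.0). RPGRIP1L was thus below FTO in the control and in sh#2, but in sh#7 its FPKM was the higher of the 2. Its fragments were estimated at 85 to 102 per library from its shortest annotated coding transcript, of 893 nt. The longest has 7725 nt, so the fragment numbers may be too low and the intervals too wide. The overlap of the intervals is therefore no sign of an equal level. The annotated transcripts of the 2 genes overlap on opposite strands in GENCODE 29, and the sources used here do not say whether fragments were assigned by strand.

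Among the Iroquois genes on the far side of FTO, IRX3 was abundant and IRX5 was listed at 0. IRX3 was the highest of the members in every library, at 42.8 FPKM with the control hairpin, 37.3 with sh#2 and 22.4 with sh#7. Its counting intervals did not overlap between any 2 libraries. The sh#7 level was 52.2% of the control (49.8 to 54.8) and the sh#2 level was 87.0% (83.5 to 90.7), which corresponds to differences of -0.91 and -0.20 on the log2(FPKM + 1) scale used throughout. Compared directly, sh#7 held 0.600 times the IRX3 level of sh#2 (57.1 to 63.1%). Of the 11069 compared genes, 2.95% had a lower difference than IRX3 in sh#7 and 13% did in sh#2. In sh#7, IRX3 lay just short of the 2-fold line as deposited, and just past it after median-of-ratios (-1.08) and upper-quartile (-1.02) scaling.

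IRX5 was listed at 0 in all 3 libraries, as was the non-coding gene CRNDE, its neighbour. Such a 0 can be a failed estimate rather than a measured absence. No fold is therefore read for IRX5. Of the 7 Iroquois and related genes in the table, IRX3 alone reached 1 FPKM; 5 were listed at 0 throughout (IRX2, IRX4, IRX5, IRX6 and MKX), and IRX1 had a single value above 0, of 0.0126 FPKM in sh#2.

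Genes tied to the IRX3 and IRX5 locus in adipocytes were few in these cells. ARID5B, a repressor that binds an FTO intron enhancer, was at 4.41, 2.29 and 3.03 FPKM in control, sh#2 and sh#7. PPARGC1A, a coactivator of mitochondrial genes, was at 5.60, 3.15 and 2.68 FPKM. CUX1, a homeodomain factor reported to act on FTO and RPGRIP1L transcription, was at 11.7, 10.4 and 15.1 FPKM. None of these 3 was past 2-fold on the log2(FPKM + 1) scale, where PPARGC1A differed by -0.84 in sh#7, although its plain FPKM ratio there was 0.479. The other 5 of the list, UCP1 among them, had a mean under 1 FPKM.

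**Figure D1:**
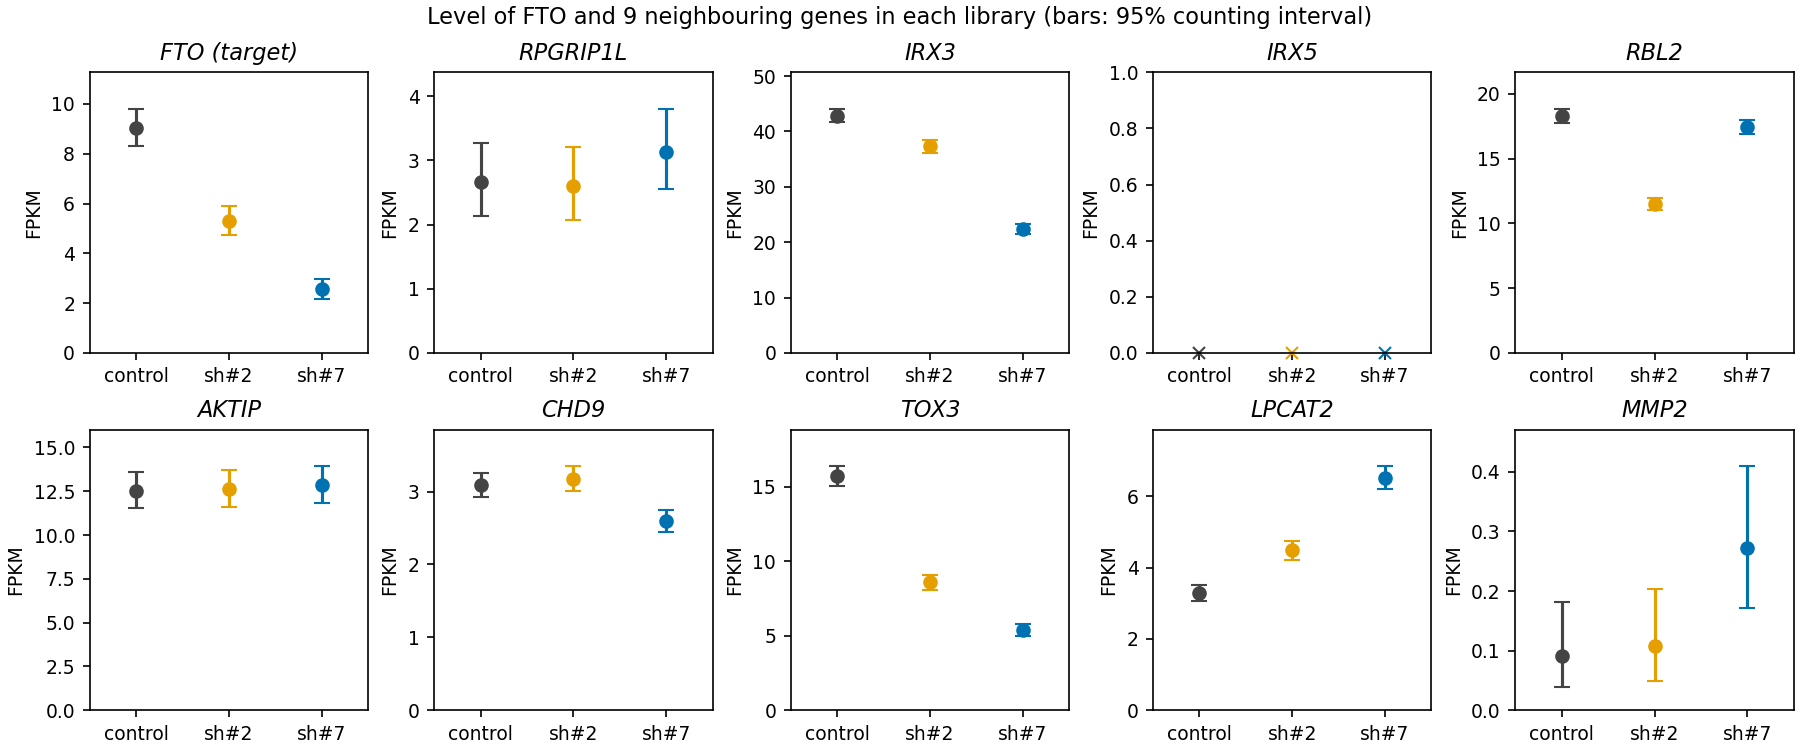
FPKM of FTO and its 9 neighbours in the control, sh#2 and sh#7 libraries, each panel on its own axis from 0; points are single libraries and bars are 95% counting intervals, with crosses for values listed at 0. IRX3 and TOX3 descend from control to sh#7 as FTO does, LPCAT2 ascends from 3.29 to 6.52 FPKM, RBL2 is low in sh#2 alone, and AKTIP stays between 12.5 and 12.8 FPKM.

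On the RPGRIP1L side, AKTIP and RBL2 lie next, and they differed from each other. AKTIP encodes the FTS subunit of a complex with Hook proteins that links cargo to dynein. It was nearly the same in the 3 libraries, at 12.5 (control), 12.6 (sh#2) and 12.8 FPKM (sh#7). The sh#7 level was 102.5% of the control, with an interval from 91.1 to 115.2. Its small differences of 0.03 in sh#7 and 0.01 in sh#2 turned to -0.13 and -0.10 after median-of-ratios scaling and to -0.07 and -0.08 after upper-quartile scaling.

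RBL2 encodes p130, a pocket protein related to the retinoblastoma protein that represses cell cycle genes in resting cells. Control and sh#7 held 18.3 and 17.4 FPKM, but sh#2 held 11.5 FPKM. The sh#2 library alone was low, at 62.9% of the control (59.9 to 66.1), while sh#7 was at 95.4% (91.2 to 99.7). Of all compared genes, 2.25% had a lower difference in sh#2 than the -0.63 of RBL2. Of the 2 hairpin lines, the one with more FTO RNA thus had less RBL2 RNA, and sh#7 exceeded sh#2 by 1.52-fold (144.1 to 159.4% of sh#2). RBL2 and AKTIP overlap on opposite strands, so fragments from their shared end may count for either gene.

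CHD9, a chromatin remodeller of the CHD family, was at 3.09, 3.18 and 2.59 FPKM in control, sh#2 and sh#7. The sh#7 library was the lowest, at 83.8% of the control (77.4 to 90.7), and the intervals of the other two overlapped. The sh#2 difference of 0.03 became -0.06 and -0.05 under the 2 scalings.

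TOX3, the member farthest from FTO on that side, was the one past 2-fold among the 7 members that averaged at least 1 FPKM. TOX3 encodes an HMG-box protein, and variants near it are associated with breast cancer risk. Its FPKM was 15.7 with the control hairpin, 8.58 with sh#2 and 5.37 with sh#7. No 2 libraries overlapped by their counting intervals. TOX3 stood at 54.6% of the control in sh#2 (50.8 to 58.6) and at 34.2% in sh#7 (31.4 to 37.2). The differences were -0.80 and -1.39, and 1.29% and 1.16% of compared genes lay lower. Between the lines, sh#7 held 62.6% of the sh#2 level (57.0 to 68.7).

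LPCAT2 and MMP2 lie beyond IRX5. LPCAT2 encodes an acyltransferase that makes phosphatidylcholine and platelet-activating factor and is known from leukocytes. It was higher in both lines, with 3.29 FPKM for the control hairpin, 4.48 for sh#2 and 6.52 for sh#7, and no 2 counting intervals overlapped. The sh#2 level was 1.36-fold (124.2 to 149.3% of control) and the sh#7 level 1.98-fold (181.9 to 215.9%). The log2 differences were 0.35 and 0.81, and 96.0% of compared genes lay below LPCAT2 in sh#7.

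MMP2, the gelatinase of fibroblasts and other stromal cells, was near the limit of these libraries. It was at 0.0912, 0.107 and 0.272 FPKM in control, sh#2 and sh#7, from about 8, 9 and 23 estimated fragments. The sh#7 library was highest, at 2.99 times the control with an interval of the ratio from 125.0 to 748.6%, while the intervals of the 2 levels still overlapped. Because of the added 1, the log2 differences were only 0.22 and 0.02; with a pseudocount of 0.1 the difference in sh#7 was 0.96.

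MMP2 and LPCAT2 are genes of stromal cells and leukocytes, so markers of these were read as well. Of 8 fibroblast and stellate cell markers, 5 (COL1A2, COL3A1, THY1, DCN and LUM) were listed at 0 in every library, and the list's sum of 43.9, 35.4 and 52.7 FPKM came mostly from ACTA2. The 2 other markers differed in direction. COL1A1 was ordered as MMP2 was, at 0.0149, 0.102 and 0.578 FPKM, and PDGFRB was ordered the opposite way, at 3.76, 1.69 and 0.616 FPKM, past 2-fold lower in sh#7 (-1.56). The part of these markers in the MMP2 values was not tested. The leukocyte gene PTPRC was listed at 0 in all libraries. The blood and immune sum of 3258, 1354 and 322 FPKM was nearly all LYZ and ran opposite to LPCAT2. The 5 endothelial markers summed to at most 0.196 FPKM, and the 5 biliary markers to 364, 472 and 595 FPKM, with KRT19 at 144, 243 and 324 FPKM and SOX9 at 77.3, 69.5 and 59.1 FPKM.

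Set in order of level in the control, the genes ran IRX3, RBL2, TOX3, AKTIP, FTO, LPCAT2, CHD9, RPGRIP1L, MMP2 and IRX5. LPCAT2 and CHD9, and CHD9 and RPGRIP1L, did not differ beyond their counting intervals there. In sh#7 the order was IRX3, RBL2, AKTIP, LPCAT2, TOX3, RPGRIP1L, CHD9, FTO, MMP2 and IRX5, with RPGRIP1L, CHD9 and FTO overlapping in turn. The overlaps of RPGRIP1L depend on the short transcript taken for its fragments.

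Few of the members passed 2-fold in any comparison. Of the 9, 7 averaged at least 1 FPKM and could be called; IRX5 and MMP2 could not, and MMP2 has a plain FPKM ratio of 2.99 in sh#7. In sh#7 against control, 1 of 7 (TOX3) was past 2-fold, where 4.83% of all compared genes were (2.35% higher and 2.48% lower). In sh#2 against control, 0 of 7 were, with a background of 1.23% (0.506% higher and 0.723% lower). In sh#7 against sh#2, 0 of 7 were, with 2.97% in the background (1.45% higher and 1.52% lower). With 7 genes, 1 such gene is too few to read against these shares. The median difference of these 7 was -0.06 in sh#7 and -0.02 in sh#2, against 0.16 and 0.10 for all compared genes. Over all 9 it was 0.00 in both, but that value is set by the listed 0 of IRX5 and nothing is read from it. The control library is shared by both comparisons, so they are not independent of each other.

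The wider region held genes with higher and genes with lower levels. Of 64 genes in a list from 16q12 to 16q13 found in the table, which includes the members and FTO, 43 averaged at least 1 FPKM. The list is a selection and not every gene of the region, with MT3 as its only metallothionein gene. The counts and medians below hold for this list only. Of these, 7 were past 2-fold in sh#7 (4 higher and 3 lower) and 1 was in sh#2, beside 4.83% and 1.23% of all compared genes; the 7 include FTO, the targeted gene. The median of the 43 was 0.13 (sh#7) and 0.03 (sh#2), beside 0.16 and 0.10 for all compared genes. On the TOX3 side of FTO, 11 of 23 compared genes lay above the median of all genes in sh#7, and on the IRX3 side 8 of 19 did. Apart from FTO and TOX3, the genes past 2-fold in sh#7 were CES1, CPNE2, ADCY7, NKD1 and PLLP, the last 3 named after their values were seen. CES1, a liver carboxylesterase just beyond LPCAT2 in this list, was the one past 2-fold in sh#2, at differences of 1.66 there and 2.07 in sh#7. CPNE2, a calcium-dependent phospholipid-binding protein, was at 4.59, 4.75 and 13.8 FPKM in control, sh#2 and sh#7, and was past 2-fold also between the lines (1.36). ADCY7, an adenylyl cyclase, was at 2.07, 2.82 and 5.56 FPKM. NKD1, a feedback inhibitor of Wnt signalling, was at 42.4, 58.2 and 86.2 FPKM. PLLP, a membrane protein of myelin and epithelia, was at 48.9, 31.4 and 22.5 FPKM.

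**Figure D2:**
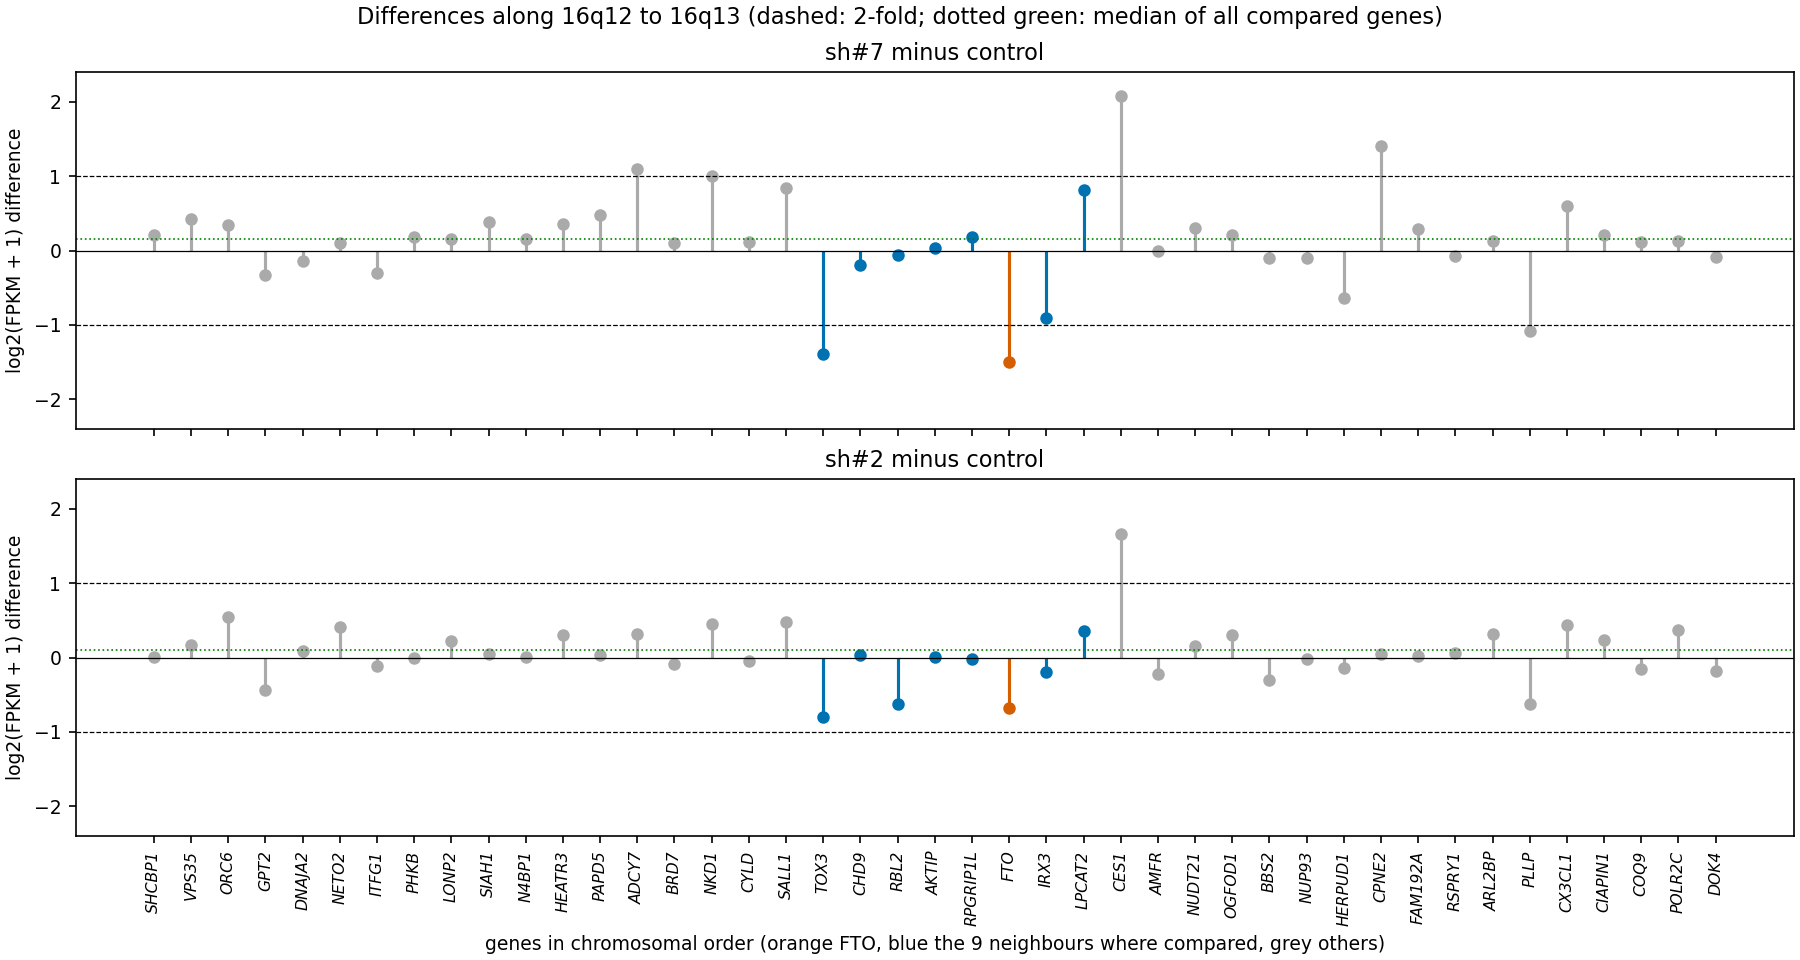
Differences in log2(FPKM + 1) from the control for the 43 compared genes of 16q12 to 16q13 in chromosomal order, with sh#7 above and sh#2 below; FTO is orange, its neighbours blue and other genes grey, dashed lines mark 2-fold and the dotted line the median of all compared genes. Genes above and below 0 are found on both sides of FTO, and RPGRIP1L and AKTIP beside it lie near 0.

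The relatives and partners of the members were read from lists built around each gene. Counts past 2-fold in these lists stand beside 4.83% of all compared genes in sh#7 and 1.23% in sh#2. The lists are too short for their counts to be read against these shares. In the CHD family, 9 of 10 genes were compared and 0 passed 2-fold in either line. CHD4, the nucleosome remodeller of the NuRD complex, was at 53.4, 62.9 and 68.5 FPKM in control, sh#2 and sh#7, far above CHD9. CHD1, CHD2, CHD3, CHD6, CHD7, CHD8 and CHD1L differed from the control by -0.10 to 0.53 in sh#7 and by -0.25 to 0.26 in sh#2. CHD9 had the lowest sh#7 difference of the 9, at -0.19.

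In the TOX family, TOX4, a widely expressed subunit of a phosphatase complex, did not share the pattern of TOX3. It was at 33.7, 39.0 and 31.5 FPKM in control, sh#2 and sh#7, while TOX and TOX2 were listed at 0 in all 3.

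The other pocket protein genes were higher where RBL2 was not. RB1 was at 9.87, 11.6 and 14.1 FPKM and RBL1, which encodes p107, at 8.37, 10.2 and 13.8 FPKM in control, sh#2 and sh#7. RBL2 exceeded RBL1 by FPKM in the 3 libraries, by the least in sh#2. Of 13 genes of the pocket protein and DREAM list, 13 were compared and 0 passed 2-fold; the median was 0.42 (sh#7) and 0.22 (sh#2).

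Of the 12 genes listed for the FTS, Hook and FHIP complex, 11 were compared and 0 passed 2-fold. HOOK1, HOOK2 and HOOK3, adaptors of dynein, differed from the control by 0.23, 0.38 and 0.47 in sh#7, against 0.03 for AKTIP, and by 0.11, 0.01 and 0.18 in sh#2. Of 24 ciliary transition zone genes, 20 were compared, RPGRIP1L included, and 0 passed 2-fold on the log2(FPKM + 1) scale. CC2D2A had a plain FPKM ratio of 2.02 in sh#7, at 0.964 and 1.95 FPKM in control and sh#7 (0.59). The list medians of 0.11 in sh#7 and 0.06 in sh#2 lay within 0.05 of those of all genes.

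Most genes listed for Hedgehog signalling, which depends on the cilium, averaged under 1 FPKM. Among these was IHH, at 0.102, 0.818 and 1.17 FPKM in control, sh#2 and sh#7. Its plain FPKM ratios were 7.99 in sh#2 and 11.5 in sh#7. SMO was well above 1 FPKM, at 13.6, 16.2 and 18.7 FPKM. Of 13 genes 5 were compared, and 1 of them passed 2-fold in sh#7, beside 4.83% of all compared genes. This was GPR161, a ciliary receptor that restrains the pathway, at 0.216, 0.841 and 5.53 FPKM in control, sh#2 and sh#7. Its differences were 2.43 in sh#7 and 0.60 in sh#2, where the plain FPKM ratio was 3.89. The target genes GLI1, PTCH1 and HHIP stayed low: GLI1 was at most 0.0386 FPKM, HHIP was listed at 0, and PTCH1 was at 1.14, 0.784 and 0.534 FPKM.

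Among 13 lysophospholipid acyltransferases, 10 were compared and 0 passed 2-fold, with list medians of 0.39 and 0.16 in sh#7 and sh#2. LPCAT3, which incorporates polyunsaturated acyl chains in liver, was at 39.0, 42.7 and 51.1 FPKM, and LPCAT1 at 25.8, 21.6 and 29.3 FPKM in control, sh#2 and sh#7. LPCAT4 was at 12.9, 11.4 and 11.6 FPKM. LPCAT2 was the lowest of the 4 in each library and had the highest difference from the control of the 4 in each line, at 0.81 in sh#7 and 0.35 in sh#2. Other genes of the list came near it. AGPAT3 differed by 0.79 in sh#7 and 0.23 in sh#2, and LPGAT1 by 0.57 and 0.35. AGPAT1 was lower, at -0.18 and -0.12.

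MMP14, TIMP1, TIMP2 and TIMP3 were at higher levels than MMP2 in every library. TIMP4 was below MMP2 in control and sh#2, at 0.0151 and 0.0294 FPKM, and was at 0.302 FPKM in sh#7. MMP14, a membrane-bound activator of pro-MMP2, was at 10.97, 10.64 and 5.92 FPKM in control, sh#2 and sh#7. TIMP2, which inhibits MMP2 and also takes part in its activation, was at 23.9, 21.2 and 56.5 FPKM, and TIMP3 at 30.8, 21.7 and 5.52 FPKM. In sh#7 these 2 inhibitors were past 2-fold in opposite directions, at 1.21 and -2.29. MMP17, a membrane-type metalloproteinase, was at 2.07, 5.03 and 6.0 FPKM. In all, 8 of 21 genes of the list were compared. In sh#7, 2 were past 2-fold higher and 1 lower, beside 2.35% and 2.48% of all compared genes. In sh#2 0 were, beside 1.23%, and MMP17 stayed short there through the added 1 (0.97, plain FPKM ratio 2.43).

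**Figure D3:**
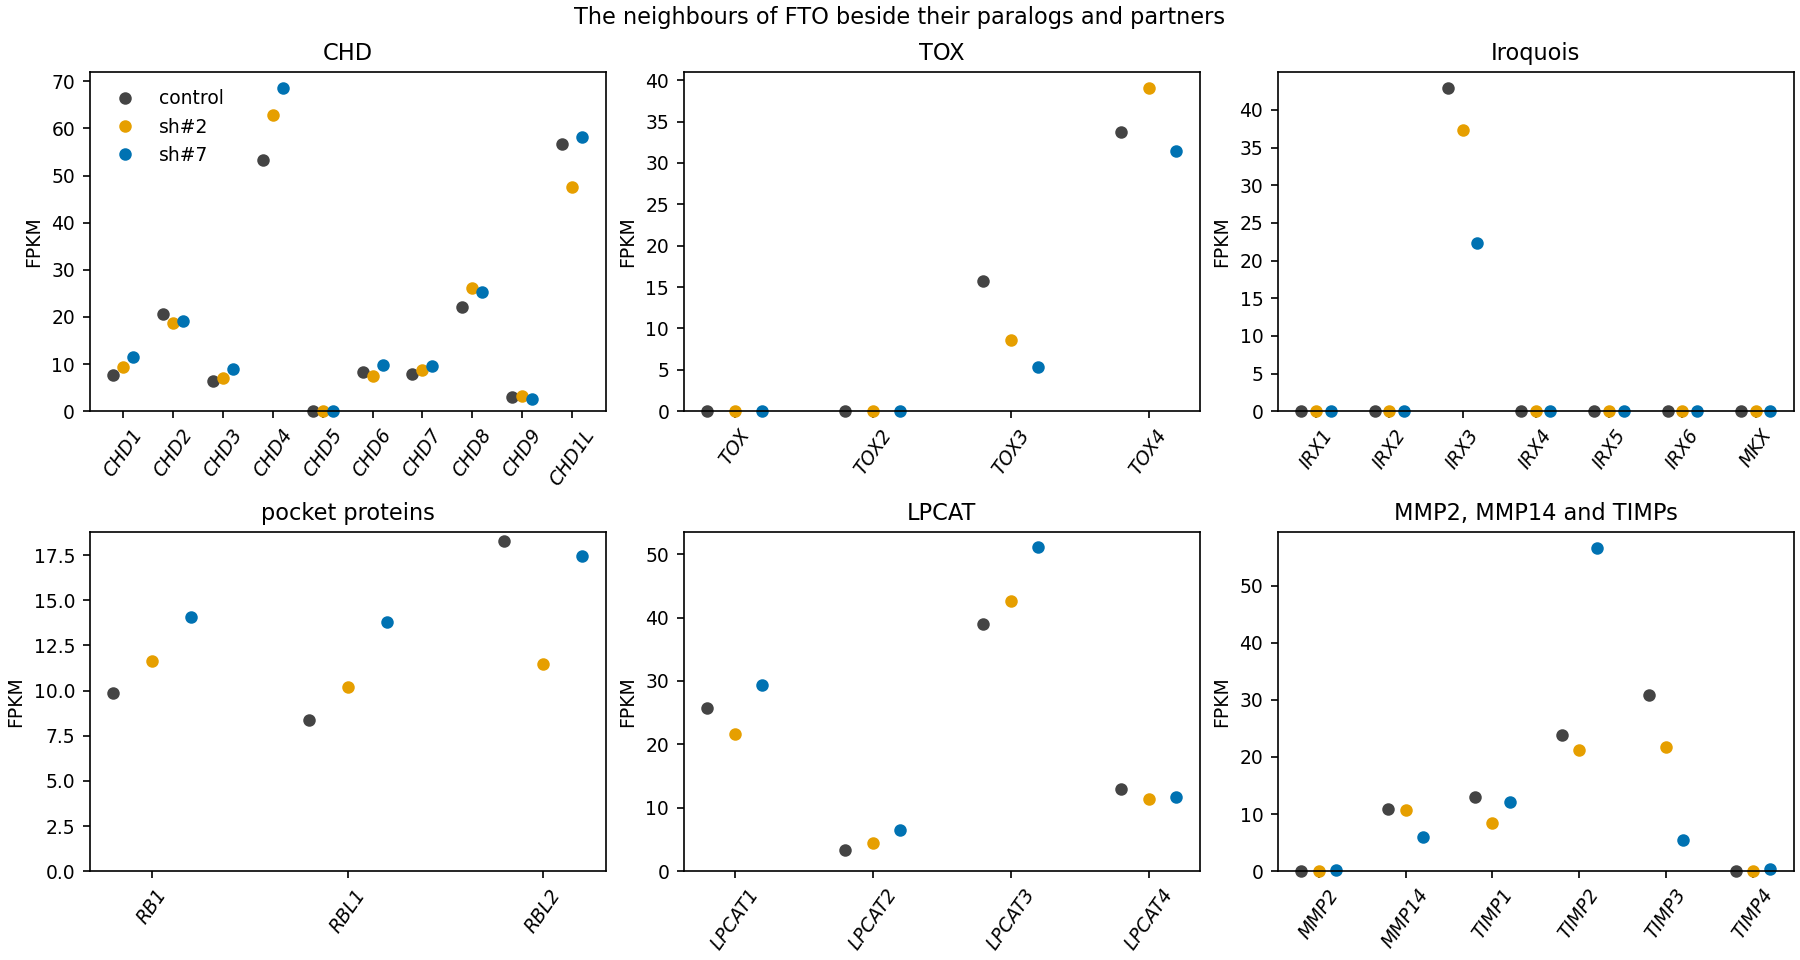
FPKM of the members beside paralogs and partners in the control, sh#2 and sh#7 libraries, each point 1 library and each axis from 0. TOX3 descends while TOX4 does not, RBL2 is lowest in sh#2 (11.5 FPKM) where RB1 and RBL1 are not, and IRX3 is the only Iroquois gene above 1 FPKM.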

How the data were processed

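RNA from 3 Hep-G2 lines was sequenced, 1 library per group. The authors deposited FPKM values per gene symbol; the submitters' processing notes name Cufflinks 2.2.1, HTSeq, STAR 2.4.0j and the build hg19, with no roles given. Differences are log2(FPKM + 1) of 1 library minus another, which understates changes of low genes, and only genes averaging at least 1 FPKM were compared. Being past 2-fold is a description, not a test. Depth was estimated from single-fragment steps of low genes with 1 GENCODE 29 transcript over 800 nt, after subtracting 200 nt, as 47.2, 47.0 and 46.9 M fragments in control, sh#2 and sh#7. Fragments of a gene used its shortest annotated coding transcript over 800 nt, so they are low estimates. Level intervals are exact Poisson and ratio intervals exact Clopper-Pearson, at 95%. Gene order came from RefSeq on GRCh38.p14, and promoter windows were found for 4 of 10 genes. Named beyond FTO and the members were paralogs and, per list, at most 4 genes past 2-fold in a line, plus the 3 genes nearest in pattern to IRX3 and TOX3; others were chosen after their values were seen. The members and lists were chosen with earlier results of these data known. Calculations were tested on simulated data. Python 3.11.15, pandas 2.3.3 and SciPy 1.17.1 were used.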

Additional observations from a re-analysis of the deposited data

How the results depend on the processing

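No paired analysis was possible because every group has 1 library, and for the same reason no library could be left out. Of the members, 1 was past 2-fold in sh#7, and with IRX3 added there were 2 under upper-quartile scaling and also 2 when median-of-ratios factors were used. At 1.5-fold, 3 members passed in sh#7, 2 in sh#2 and 2 between the lines, and of the 16q12 to 16q13 list 12, 5 and 5 did. The share of all compared genes past 1.5-fold was not computed, and the 2-fold shares do not apply. Nothing is therefore read from these 1.5-fold counts. With a pseudocount of 0.1, 2 genes of the 16q12 to 16q13 list passed between the lines, FTO itself among them (-1.02). FTO in sh#7 against control was then at -1.78. Scaling moved the median of all genes from 0.16 to 0.00 (median-of-ratios) or 0.06 (upper-quartile) in sh#7. The median over the 9 members, IRX5 at 0 included, in sh#7 was -0.13 under median-of-ratios scaling. At a minimum mean of 5 FPKM, which leaves fewer members, it was -0.49 in sh#7, -0.41 in sh#2 and -0.28 between the lines. The other 52 of 66 summary values stayed within their limits, but some of them could not move. Without a filter, the member counts, member medians and FTO differences repeat the main calculation. The FTO differences at a minimum mean of 5 FPKM do so too. Of 120 member values, 21 left their counting interval, and none past 2-fold changed sign. The interval was set on the log2(FPKM + 1) scale, so the 4 of the 21 from a pseudocount of 0.1 reflect the changed scale. The IRX5 values have no interval, stayed at 0.00 and are counted among the rest. Also among the rest are 12 values at a minimum mean of 5 FPKM and 27 without a filter. These could not move, because a filter does not enter a gene's difference. Among the members with an interval, depth limits MMP2 most. The wide intervals of RPGRIP1L depend also on the short transcript taken for its fragments.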

Other observations

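The genes most like IRX3 and TOX3 were sought among 8163 other genes averaging at least 5 FPKM, by the Euclidean distance between their 2 log2 differences from the control. With only 3 libraries, 1 of them shared, nearness says little beyond the values themselves. Nearest to IRX3 were PDLIM2, an actin-associated adaptor, CITED2, a transcriptional coregulator, and PGM1, a phosphoglucomutase, at distances of 0.024, 0.025 and 0.026. CITED2 was close to IRX3 also in level, at 40.9, 35.9 and 21.0 FPKM in control, sh#2 and sh#7. In all, 18 genes lay within 0.1 of IRX3. Nearest to TOX3 were NR0B2, an orphan nuclear receptor that represses bile acid synthesis, at 0.010, the plasma protein gene ITIH3 at 0.064 and ARHGEF40 at 0.080. NR0B2 was at 31.4, 17.7 and 11.4 FPKM. Only 4 genes lay within 0.1 of TOX3. IRX5 could not be placed, being listed at 0.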
